A study of Mus musculus with 45 samples.

Results

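Macrophage genes and the 3 genes of complement C1q were followed in the ileum of mice that lack the cell-death adaptor FADD or the protease caspase-8 in the gut epithelium. The set holds 10 genes chosen by name: Lyz2, C1qa, C1qb, C1qc, Csf1r, Itgam, Cd68, Adgre1, Mrc1 and Cd163. Of these, 9 had a probe among the 19494 genes tested, each with 1 probe, and Cd68 was not analysed here.

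RNA was measured on 45 microarrays, 1 for each mouse, in 9 groups of 5 mice. The arrays read whole ileum, frozen on dry ice, from mice about 11 weeks old, kept under specific-pathogen-free conditions on chow, with the sex not given. Values are normalised log2 intensities, so a difference of 1 is a doubling, and the number of arrays, 5 for each group, limits the precision. The controls carried floxed alleles without deletion, either Fadd fl/fl or Casp8 fl/fl. FADD IEC-KO and CASP8 IEC-KO mice had lost Fadd or Casp8 in intestinal epithelial cells. In 3 further groups the loss of epithelial FADD was combined with a full knockout of Mlkl (FADD IEC-KO Mlkl -/-), a full knockout of Zbp1 (FADD IEC-KO Zbp1 -/-) or an epithelial deletion of Ripk3 (FADD IEC-KO RIPK3 IEC-KO). The last groups were CASP8 IEC-KO Mlkl -/- and the triple mutant FADD IEC-KO CASP8 IEC-KO Mlkl -/-, whose genotype field names only CASP8 IEC-KO Mlkl -/- and which was grouped by its title. The epithelial deletions leave Fadd, Casp8 and Ripk3 in macrophages and all other cells, whereas macrophages of the Mlkl -/- and Zbp1 -/- mice also lack those genes. What drives the epithelial deletion is not stated in the labels, and nothing says whether mice of a group were littermates. In whole tissue, fewer macrophages and less of an RNA in each macrophage cannot be told apart.

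C1q is the recognition subunit of the classical complement pathway. It is built from A, B and C chains, encoded by C1qa, C1qb and C1qc, and is made mainly by tissue macrophages rather than by the liver. Csf1r encodes the receptor for the growth factors CSF1 and IL-34, on which intestinal macrophages depend, and the transcription factor PU.1, encoded by Spi1, drives many macrophage genes. Itgam (CD11b), Adgre1, Mrc1 (CD206) and Cd163 encode surface proteins of myeloid cells. Lyz2 encodes the lysozyme of macrophages and neutrophils, and its neighbour Lyz1 encodes the lysozyme of Paneth cells, the antimicrobial secretory cells at the base of small-intestinal crypts. FADD and caspase-8 hold back necroptosis, a lytic death carried out by RIPK3 and MLKL that the sensor ZBP1 can start.

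C1qb, C1qc and C1qa lie next to each other on chromosome 4, and Lyz2 and Lyz1 next to each other on chromosome 10. The promoters of the first pair and of the lysozyme pair are shown because these genes varied together across mice, as described further on. All are the 250 bases before the start site in RefSeq, build GRCm38.p6, on the minus strand, written 5′ to 3′. The start site used for C1qc lies inside the gene as listed, which reaches chr4:136892936, so its window overlaps the gene. The table of promoters used here did not match C1qa. In C1qb (chr4:136886201-136886450) and C1qc (chr4:136892915-136893164) the capitals mark GAGGAA, a form of the letters in PU.1 sites, searched on both strands. Other forms of the site were not searched and are not marked.
C1qb: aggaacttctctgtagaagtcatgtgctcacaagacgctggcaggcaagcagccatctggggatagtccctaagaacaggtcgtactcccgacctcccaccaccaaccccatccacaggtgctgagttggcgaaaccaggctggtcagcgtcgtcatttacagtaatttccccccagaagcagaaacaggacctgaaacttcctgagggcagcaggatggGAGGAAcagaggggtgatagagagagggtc
C1qc: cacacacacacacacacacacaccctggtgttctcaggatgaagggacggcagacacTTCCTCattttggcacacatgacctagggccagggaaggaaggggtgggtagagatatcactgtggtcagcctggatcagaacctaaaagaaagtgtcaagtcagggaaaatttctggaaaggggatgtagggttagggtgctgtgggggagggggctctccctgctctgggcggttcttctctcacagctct
The C1qb window held 1 match, which began 30 bases before the start site. The C1qc window held 1 match on the opposite strand, written TTCCTC, which began 193 bases before the start site. The same 6 letters occurred on either strand in 23.3% of 32851 RefSeq promoter windows of 250 bases, so a match is a description and not a site. Aligned end to end, the C1qb and C1qc windows were identical at 46.6% of aligned positions, close to the 49.3% to 50.7% between C1q and lysozyme windows. In Lyz1 (chr10:117292869-117293118) and Lyz2 (chr10:117282273-117282522) the capitals mark the longest run that both windows share, 50 bases that end at the start site.
Lyz1: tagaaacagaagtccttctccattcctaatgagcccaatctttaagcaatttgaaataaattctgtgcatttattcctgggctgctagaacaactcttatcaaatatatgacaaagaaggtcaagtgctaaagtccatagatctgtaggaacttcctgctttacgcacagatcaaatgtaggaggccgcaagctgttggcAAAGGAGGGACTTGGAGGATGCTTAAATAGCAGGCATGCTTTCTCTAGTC
Lyz2: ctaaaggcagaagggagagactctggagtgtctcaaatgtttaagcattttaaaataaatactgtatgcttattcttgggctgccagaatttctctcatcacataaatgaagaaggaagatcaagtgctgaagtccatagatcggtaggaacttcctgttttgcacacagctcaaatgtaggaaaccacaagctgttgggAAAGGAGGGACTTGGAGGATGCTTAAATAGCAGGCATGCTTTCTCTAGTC
These windows were identical at 205 of 260 aligned positions (78.8%). Lyz1 and Lyz2 are close paralogs, the probe sequences were not used here, and reading of Lyz1 RNA by the Lyz2 probe cannot be told apart from Lyz2 RNA.

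The labels were checked on the targeted genes. Fadd lay between 7.27 and 7.61 in the floxed mice and between 5.34 and 6.53 in the mice labelled FADD IEC-KO, alone or in combination, except FADD IEC-KO replicate 1 at 7.32. Casp8 lay between 9.46 and 10.89 in the 15 mice labelled CASP8 IEC-KO, below the 11.24 to 11.49 of Casp8 fl/fl. Mlkl was below all floxed mice in the triple mutant (6.94 to 7.32). It overlapped the floxed control in CASP8 IEC-KO Mlkl -/- (8.18 to 8.66 against 8.43 to 8.98) and in FADD IEC-KO Mlkl -/- (7.85 to 8.39 against 8.31 to 9.09). Zbp1 in FADD IEC-KO Zbp1 -/- (5.66 to 6.46) overlapped both Fadd fl/fl (6.23 to 7.72) and FADD IEC-KO (5.83 to 7.94). Ripk3 in FADD IEC-KO RIPK3 IEC-KO (7.33 to 7.76) lay below Fadd fl/fl (7.90 to 8.47). Whether the Mlkl and Zbp1 probes lie in the deleted parts was not examined, so the overlaps neither bear out nor contradict those labels. Of the enterocyte and ileum list, the bile acid carriers Fabp6 and Slc10a2 had mean log2 values of 12.61 and 11.61 over all mice. Fgf15, of the same list, was dimmer, with a mean of 6.42 (5.23 to 8.27). The other macrophage markers ranged from Ctss at 10.27 to Vsig4 at 4.50. In the monocyte and inflammatory macrophage list, Plac8 (12.46), Ace (10.08) and Nos2 (9.81) were bright. Ccr2 (4.65) and Chil3 (2.66) of that list were dim. Which cells of the tissue these probes read was not tested.

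The C1q genes and Csf1r were measured in the middle of the array's range. C1qa had a mean log2 intensity of 7.90 over the 45 mice and ranked above 74.3% of genes, C1qb had 7.55, C1qc 6.71 and Csf1r 8.03. Adgre1 (6.03) and Cd163 (5.78) were dimmer, and Lyz2 (9.74) was brighter than 94.3% of genes. These are probe brightnesses and do not rank one gene against another. Fadd fl/fl had the highest group mean for 8 of the 9 genes, the exception being Cd163, which was highest in Casp8 fl/fl. FADD IEC-KO was among the 3 lowest groups for 8 genes, and FADD IEC-KO Zbp1 -/- and CASP8 IEC-KO each for 7. The distance between the highest and the lowest group mean was 2.32 for Lyz2, 1.26 for Itgam and 0.88 for C1qb, and between 0.46 and 0.66 for the other 6 genes. When groups were ordered by mean, neighbouring groups overlapped for every gene. The gap between neighbours exceeded the larger SD of the pair at 2 of 8 steps for Lyz2, at 1 of 8 for C1qb and at none for the other genes.

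**Figure D1:**
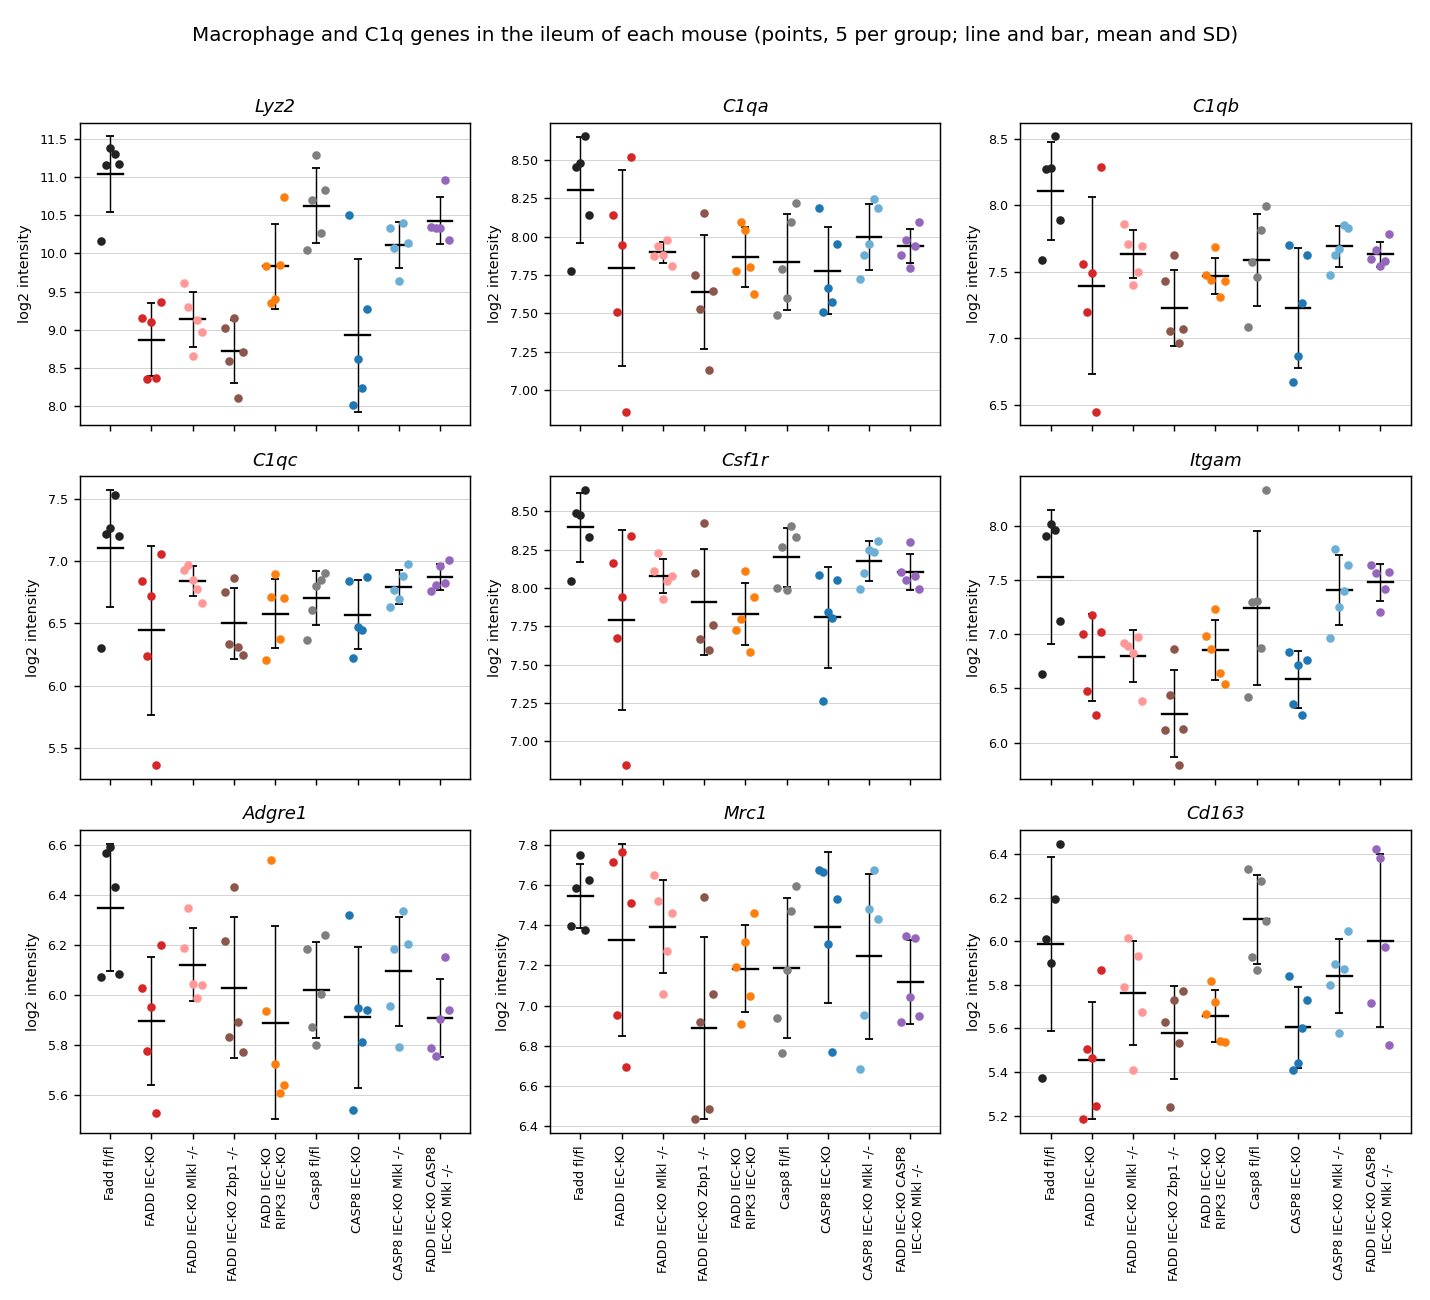
Log2 intensity of the 9 genes (vertical axes, which differ between panels and do not start at 0) in each of 45 mice, with 1 point per mouse, and a line and bar for the mean and SD of each group of 5. Lyz2 lay between 8.36 and 9.37 in FADD IEC-KO against 10.16 to 11.38 in Fadd fl/fl, whereas the other 8 genes overlapped between these groups.

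Loss of epithelial FADD was examined first, as FADD IEC-KO against Fadd fl/fl. Lyz2 fell about 4.49-fold, and C1qb, Csf1r and Cd163 fell by 0.53 to 0.71 on the log2 scale, so 4 of the 9 genes passed the test. Over all genes tested, 3.73% passed it and 1.92% passed it as lower. All 9 genes had negative differences, against 50.4% of all genes, with a median of -0.61 against -0.0018. The call rests on limma with Benjamini-Hochberg adjustment over all 19494 genes at an adjusted p below 0.05, in 1 fit of all 45 arrays, as for every comparison below.

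For the C1q chains, C1qb was 7.59, 8.27, 8.28, 8.52 and 7.89 in the Fadd fl/fl mice. In FADD IEC-KO it was 7.56, 7.20, 7.49, 6.45 and 8.29. Replicate 4 of FADD IEC-KO was the lowest of all 45 mice and replicate 5 lay among the controls, so the groups overlapped. C1qb fell by 0.71 ± 0.21 (SE; 95% CI -1.14 to -0.29; adjusted p = 0.0426). C1qa was 7.78, 8.46, 8.48, 8.65 and 8.14 in Fadd fl/fl and 8.14, 7.51, 7.95, 6.86 and 8.52 in FADD IEC-KO, a difference of -0.51 ± 0.20 (adjusted p = 0.136). C1qc was 6.30, 7.22, 7.26, 7.53 and 7.20 against 6.84, 6.24, 6.72, 5.36 and 7.06, a difference of -0.66 ± 0.20 (adjusted p = 0.0545). The 3 chains thus differed by similar amounts, with C1qb alone past the threshold, and in all 3 the same FADD IEC-KO mouse, replicate 4, was the lowest of its group. In FADD IEC-KO the SDs of the chains (0.64 to 0.68) were the largest of the 9 groups. The SEs come from the fit of all 9 groups, in which the C1qb SDs ran from 0.09 to 0.67. They therefore do not measure the spread of the groups compared here, and fewer genes were called with these groups fitted alone.

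Among the receptors and surface markers, Csf1r was 8.04, 8.49, 8.48, 8.64 and 8.34 in Fadd fl/fl and 8.16, 7.67, 7.94, 6.84 and 8.34 in FADD IEC-KO. Replicates 1 and 5 of the mutants lay within the range of the controls and the other 3 below it, replicate 4 the farthest. Csf1r fell by 0.61 ± 0.18 (adjusted p = 0.0403). Cd163, the scavenger receptor for haptoglobin-haemoglobin complexes, was 5.37, 6.01, 5.90, 6.19 and 6.45 against 5.18, 5.50, 5.47, 5.24 and 5.87. It fell by 0.53 ± 0.16 (adjusted p = 0.0488), and the overlap came from replicate 1 of the controls and replicates 2, 3 and 5 of the mutants. Itgam, the alpha chain of complement receptor 3, spread widely in both groups, from 6.63 to 8.02 in Fadd fl/fl and from 6.25 to 7.18 in FADD IEC-KO, with a difference of -0.74 ± 0.25 (adjusted p = 0.0785). The differences of Adgre1 (-0.45 ± 0.15, adjusted p = 0.0854) and of the mannose receptor gene Mrc1 (-0.22 ± 0.21, adjusted p = 0.637) did not pass.

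Lyz2 was 10.16, 11.16, 11.38, 11.30 and 11.18 in Fadd fl/fl and 9.16, 8.36, 9.10, 8.37 and 9.37 in FADD IEC-KO. Every mutant lay below every control, which was so, in the lower direction, for 1.59% of all genes, and for none of the other 8. Lyz2 fell by 2.17 ± 0.31 (95% CI -2.80 to -1.53; adjusted p = 4.27e-05). Its Paneth cell neighbour Lyz1 had mean log2 values of 12.36 ± 0.34 and 10.08 ± 0.25 (SD, n = 5) and fell by 2.28 ± 0.32 (SE; adjusted p = 2.81e-05).

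The Lyz2 call held when any 1 of the 10 mice was left out (-2.38 to -2.04), but C1qb and Csf1r each lost theirs without any one of 7 mice (Fadd fl/fl replicates 2 to 5 and FADD IEC-KO replicates 2 to 4), and Cd163 lost its call without any one of 8 (those and FADD IEC-KO replicate 1). Over these omissions the difference ran from -0.94 to -0.48 for C1qb, from -0.74 to -0.37 for Csf1r and from -0.69 to -0.42 for Cd163. With FADD IEC-KO replicate 1 left out, the mouse with control-like Fadd, 4 genes were called, and with replicate 4 left out, 1 was. The share of all genes called with these mice left out was not counted.

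Other genes gave the setting of these differences. None of 28 further macrophage genes passed (8 had an unadjusted p under 0.05; median difference -0.22). The most strongly measured was Ctss, the lysosomal protease cathepsin S, with -0.26 ± 0.11 (adjusted p = 0.182). Among 12 monocyte and inflammatory macrophage genes, Ccl12 alone passed, and it fell. Of 12 genes around the CSF1 receptor, 1 fell, Spi1, by 0.98 ± 0.28 (adjusted p = 0.0358), and the ligand gene Csf1 differed by -0.49 (adjusted p = 0.104). Of 32 other complement genes, 4 fell, among them the pore component C7 (by 0.68), the C1 inhibitor gene Serping1 (by 0.57) and the anaphylatoxin receptor gene C5ar1 (by 0.53), and none rose. Paneth cell genes fell far more widely, 15 of 17, with a median of -2.36, with log2 fold changes of -4.25 for Mptx1, -3.91 for Defa28 and -3.88 for Mptx2. The Paneth cell list mean ranged from 10.20 to 11.44 in Fadd fl/fl and from 8.01 to 9.49 in FADD IEC-KO, and its part in the Lyz2 result was not tested.

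Genes of other cell types also passed the test. Of 10 endothelial genes 2 fell, Eng by 0.74 and Tie1 by 0.39, and the list mean ranged from 6.82 to 7.18 in Fadd fl/fl and from 6.22 to 6.83 in FADD IEC-KO. Of 9 fibroblast genes 2 fell, Postn by 0.96 and Sparc by 0.74. Cd209a of 10 dendritic cell genes, Kit of 8 mast cell genes and Cnn1 of 8 smooth muscle genes also fell. Krt20, of the enterocyte and ileum list, rose. Of 9 T cell genes Cd4 fell, by 0.57, and of 9 B and plasma cell genes none passed (2 had an unadjusted p under 0.05), with list means of 6.59 to 7.22 in Fadd fl/fl and 6.23 to 7.03 in FADD IEC-KO. Among 11 neutrophil genes S100a8 rose by 1.45 from a very low level. FADD IEC-KO replicate 4, the lowest mouse for the C1q genes, was also the lowest of its group in the B cell (6.23), T cell (5.29), endothelial (6.22) and other-macrophage (6.02) list means and the highest in the smooth muscle list mean (10.47). Fadd fl/fl replicate 1 was the lowest control in the first 4 of these lists. The part of these lists in the C1q and Csf1r results was not tested.

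Loss of epithelial caspase-8, CASP8 IEC-KO against Casp8 fl/fl, gave 1 call among the 9 genes. Lyz2 fell 3.25-fold, while 4.17% of all genes passed and 1.28% passed as lower. Of the 9 differences 8 were negative, as were 53.5% over all genes. The Casp8 fl/fl mice had Lyz2 at 10.04, 10.71, 11.29, 10.26 and 10.83. In CASP8 IEC-KO it was 10.50, 8.02, 8.61, 8.23 and 9.28. Replicate 1 of CASP8 IEC-KO lay among the controls and the other 4 below all of them, and the SD of this group (0.999) was the largest for Lyz2. Lyz2 fell by 1.70 ± 0.31 (adjusted p = 0.00107), and without that mouse its difference was -2.09 (adjusted p = 3.36e-06). The SE comes from the fit of all groups, and the Lyz2 call was lost with the groups compared here fitted alone. Lyz1 fell by 1.99 ± 0.32 (adjusted p = 2.17e-04), and the same replicate 1 had the highest Paneth cell list mean of its group, 10.45 against 7.14 to 8.91 in the other 4.

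None of the C1q chains passed the test between these groups. C1qb was 7.09, 7.58, 7.46, 7.82 and 7.99 in Casp8 fl/fl and 7.70, 6.67, 6.87, 7.27 and 7.62 in CASP8 IEC-KO, a difference of -0.36 ± 0.21 (95% CI -0.78 to 0.06; adjusted p = 0.358). The difference was -0.06 ± 0.20 for C1qa and -0.13 ± 0.20 for C1qc. For C1qb 2 mutants lay below the control range and 3 within it. Cd163 was 6.33, 5.93, 5.87, 6.28 and 6.09 in Casp8 fl/fl and 5.84, 5.41, 5.44, 5.60 and 5.73 in CASP8 IEC-KO, the only one of the 9 genes without overlap, as were 1.57% of all genes in the lower direction. Its difference of -0.50 ± 0.16 missed the threshold (adjusted p = 0.0650). Itgam differed by -0.66 ± 0.25 (adjusted p = 0.123), Csf1r by -0.39 ± 0.18 (adjusted p = 0.207), Adgre1 by -0.11 ± 0.15 and Mrc1 by 0.20 ± 0.21.

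Of the 28 other macrophage genes none passed in CASP8 IEC-KO (5 had an unadjusted p under 0.05), whereas 15 of 17 Paneth cell genes fell, with a median of -2.31. In the complement list C2, the classical and lectin pathway protease, fell by 0.78 (adjusted p = 0.0447), and in the CSF1R list the adaptor gene Dok2 fell by 0.46 (adjusted p = 0.0338). Whether the effects of the 2 deletions differ was tested as an interaction, and none of the 9 genes passed, nor did any gene tested (0%), with 0 of the 9 at an unadjusted p under 0.05. The interaction was -0.46 ± 0.44 for Lyz2 (95% CI -1.36 to 0.43; adjusted p = 0.931), -0.52 ± 0.29 for C1qc and -0.04 ± 0.23 for Cd163. More calls after FADD loss than after caspase-8 loss are therefore no shown difference between the deletions.

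The control group bears on these counts. Between Fadd fl/fl and Casp8 fl/fl no member passed the test (0.00513% of all genes did). An unadjusted p under 0.05 was seen for 3 members, with the share of all genes at that threshold not counted. Fadd fl/fl was nevertheless the higher for 8 of the 9 genes (49% of all genes had negative differences), by 0.52 ± 0.21 for C1qb, 0.46 ± 0.20 for C1qa and 0.33 ± 0.15 for Adgre1. With both floxed groups together as the control, a choice made after this was seen, FADD IEC-KO gave 3 calls (Lyz2, Csf1r and Cd163), with C1qb at -0.45 (adjusted p = 0.109). CASP8 IEC-KO then gave 5 calls. Lyz2 fell by 1.91, C1qb by 0.62 (adjusted p = 0.0313), Csf1r by 0.49, Itgam by 0.80 and Cd163 by 0.44. The share of all genes called was not counted for either mutant against both floxed groups.

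**Figure D2:**
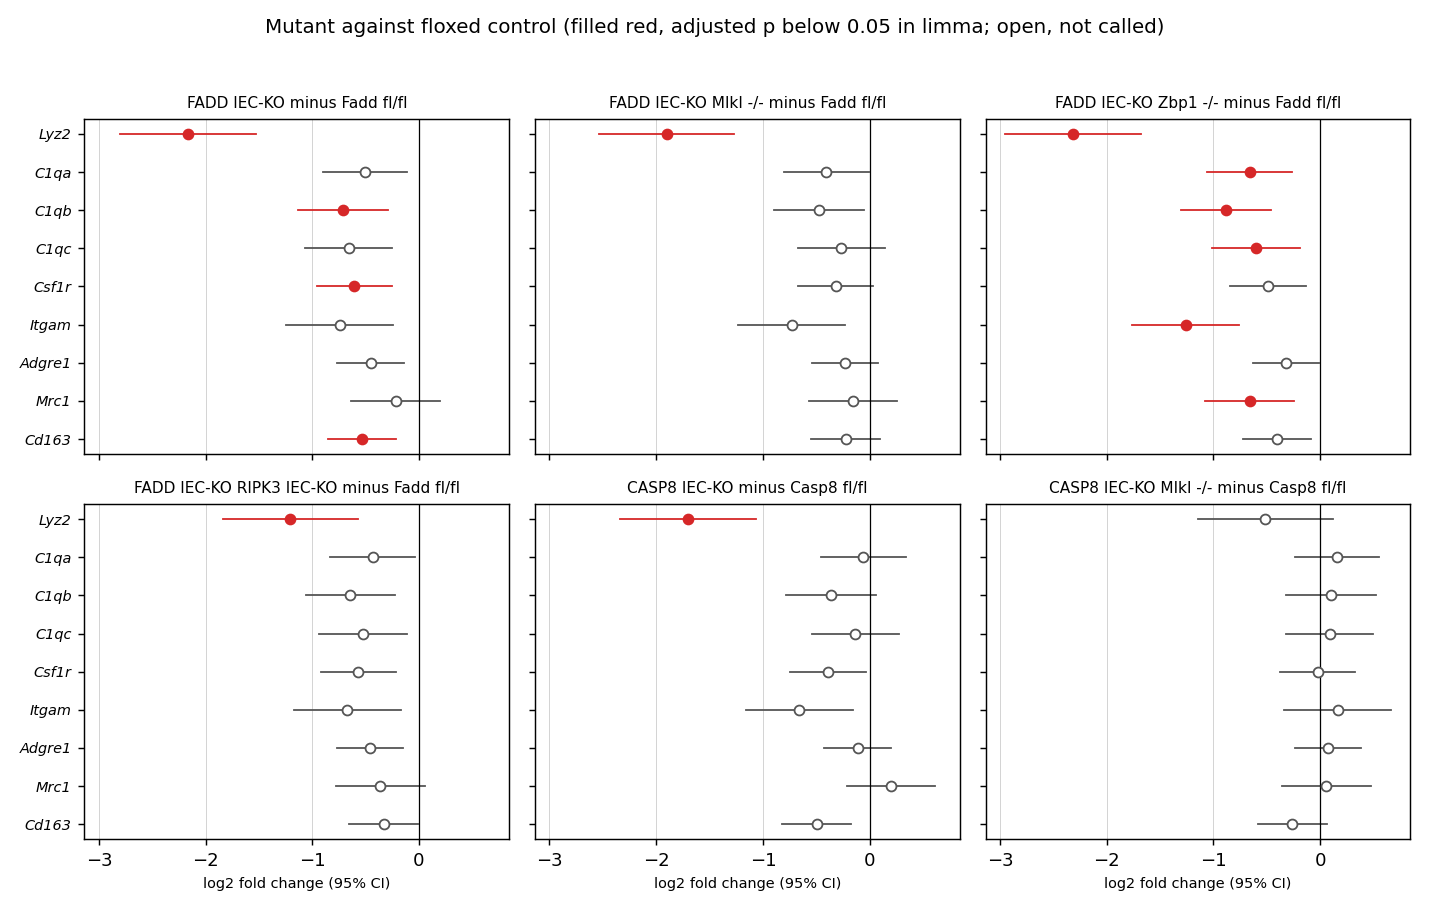
Log2 fold change (horizontal axis) of each gene in 6 mutant groups against their own floxed control, 5 mice in each group, with 95% confidence intervals and filled red points for an adjusted p below 0.05 in limma. Lyz2 was called in 5 of the 6 panels, and the C1q genes were called at 3 of 3 in FADD IEC-KO Zbp1 -/- and 1 of 3 in FADD IEC-KO.

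The next comparisons asked what a second deletion did on top of FADD loss, each against FADD IEC-KO, which they share as the reference. None of the 9 genes passed in any of the 3. In FADD IEC-KO Mlkl -/- (1.61% of all genes passed, and 0 members had an unadjusted p under 0.05) all 9 differences were positive, against 52.3% negative over all genes, and small, from 0.01 for Itgam to 0.39 for C1qc. Lyz2 there was 9.61, 9.29, 8.66, 9.13 and 8.97, inside and just above the FADD IEC-KO range, a difference of 0.26 ± 0.31 (95% CI -0.37 to 0.90; adjusted p = 0.844). The C1qa values of this group, 7.81 to 7.98, had the smallest spread of any group (SD 0.07).

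In FADD IEC-KO Zbp1 -/- (3.32% of all genes passed, 2 members at an unadjusted p under 0.05) Itgam was 6.12, 6.44, 6.86, 5.79 and 6.13, against 6.9997, 6.48, 7.18, 6.25 and 7.02 in FADD IEC-KO. The Zbp1 -/- mice ran lower but overlapped, and the difference was -0.52 ± 0.25 (adjusted p = 0.263). Mrc1 differed by -0.44 ± 0.21 (adjusted p = 0.248) and Lyz2 by -0.15 ± 0.31. In FADD IEC-KO RIPK3 IEC-KO (1.55% of all genes passed, 1 member at an unadjusted p under 0.05) Lyz2 was 9.83, 9.35, 9.40, 9.85 and 10.73. All but replicate 2 of these mice lay above every FADD IEC-KO mouse, and the difference was 0.96 ± 0.31 (95% CI 0.33 to 1.60; adjusted p = 0.115). Lyz1 rose by 1.22 ± 0.32 (adjusted p = 0.0407), and 8 of 17 Paneth cell genes rose. The C1q chains, by contrast, differed by 0.07 to 0.13 with SEs of 0.20 to 0.21, and Csf1r by 0.04 ± 0.18.

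Set against Fadd fl/fl, which these comparisons and that of FADD IEC-KO share, Lyz2 fell in all 3 double mutants. It fell by 1.90 ± 0.31 in FADD IEC-KO Mlkl -/- (adjusted p = 9.09e-05), the only call among the 9 genes there (10.5% of all genes passed, 6.35% as lower). It fell by 2.32 ± 0.31 in FADD IEC-KO Zbp1 -/- (adjusted p = 2.24e-06), and in both groups every mouse lay below every control (5.63% and 3.64% of all genes did so in that direction). It fell by 1.20 ± 0.31 in FADD IEC-KO RIPK3 IEC-KO (adjusted p = 0.0411), again the only call (1.23% of all genes passed, 0.662% as lower), with replicate 5 at 10.73 above the lowest control.

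FADD IEC-KO Zbp1 -/- had the most calls, 6 of 9, against 11.9% of all genes and 7.08% as lower. C1qb in these mice was 7.43, 7.05, 7.63, 6.96 and 7.07, so that only replicate 3 exceeded the lowest Fadd fl/fl mouse (7.59). C1qb fell by 0.88 ± 0.21 (adjusted p = 0.00378), C1qa by 0.66 ± 0.20 (adjusted p = 0.0217) and C1qc by 0.60 ± 0.20 (adjusted p = 0.0442). Itgam fell by 1.26 ± 0.25 (adjusted p = 5.93e-04), the largest difference after Lyz2, and Mrc1 by 0.66 ± 0.21 (adjusted p = 0.0291). Mrc1 was 6.44, 6.92, 7.54, 6.48 and 7.06 against 7.37 to 7.75 in Fadd fl/fl, with replicate 3 alone inside the control range. Csf1r (-0.49, adjusted p = 0.0613), Cd163 (-0.41, adjusted p = 0.0924) and Adgre1 (-0.32, adjusted p = 0.185) did not pass. Without Fadd fl/fl replicate 1, the lowest control for 8 of the 9 genes, 8 members were called. The share of all genes called without that mouse was not counted. With each of the 10 mice left out in turn, Lyz2, C1qb and Itgam kept their calls. C1qa lost its call without any one of Fadd fl/fl replicates 2 to 4 or Zbp1 -/- replicate 4 (-0.79 to -0.53), Mrc1 without any one of Fadd fl/fl replicates 2, 3 and 5 or Zbp1 -/- replicates 1 and 4 (-0.82 to -0.55), and C1qc without any one of Fadd fl/fl replicates 2 to 5 or Zbp1 -/- replicates 2, 4 and 5 (-0.80 to -0.49).

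In the Zbp1 -/- double mutant the wider lists also moved. Of 28 other macrophage genes 5 fell, led by Aif1 (by 0.90), the gene of the macrophage protein IBA1, Ms4a7 (by 0.78) and the pore-forming protein gene Mpeg1 (by 0.69). Among 12 monocyte and inflammatory macrophage genes, Ly6c2 and Ccl12 fell and Plac8 rose. Spi1 fell by 1.33 ± 0.28 (adjusted p = 0.00109) and Csf1 by 0.81 ± 0.18 (adjusted p = 0.00164). Of 32 other complement genes 9 fell, led by C6 (by 0.92), the C1 protease gene C1ra (by 0.78) and Serping1 (by 0.67). Beside these, 8 of 10 endothelial, 7 of 9 fibroblast, 3 of 9 B and plasma cell and 17 of 17 Paneth cell genes fell, and the endothelial list mean was 6.15 to 6.62 against 6.82 to 7.18 in Fadd fl/fl. The part of these lists in the C1q and Itgam results was not tested.

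In FADD IEC-KO Mlkl -/- the C1q chains differed from Fadd fl/fl by -0.48 ± 0.21 (C1qb), -0.40 ± 0.20 (C1qa) and -0.26 ± 0.20 (C1qc), and Itgam by -0.73 ± 0.25 (adjusted p = 0.0521). Around the CSF1 receptor, Csf1 fell by 0.58 ± 0.18 (adjusted p = 0.0267) and Spi1 by 0.83 ± 0.28 (adjusted p = 0.0490), while Lgmn, a lysosomal protease gene, was the 1 of 28 other macrophage genes that fell (by 0.54). Endothelial genes fell at 7 of 10 and fibroblast genes at 7 of 9. Smooth muscle genes fell at 5 of 8 and Paneth cell genes at 16 of 17. Plac8 and Nos2, of the monocyte and inflammatory macrophage list, rose. Both were bright over all mice (means of 12.46 and 9.81), and which cells they were read from was not tested. In FADD IEC-KO RIPK3 IEC-KO all 9 genes had negative differences (48.3% over all genes). Of these, 8 had an unadjusted p under 0.05, a threshold at which the share of all genes was not counted. Among them were C1qb with -0.64 ± 0.21 (adjusted p = 0.117) and Csf1r with -0.57 ± 0.18 (adjusted p = 0.0942). Sirpa (by 0.41) and Lgmn (by 0.36) fell among the other macrophage genes, and Serping1 (by 0.72), C1s1 (by 0.63) and the properdin gene Cfp (by 0.49) among the complement genes. The Lyz2 call in this group was kept only without Fadd fl/fl replicate 1 or FADD IEC-KO RIPK3 IEC-KO replicate 5 when mice were left out in turn (-1.43 to -1.08), and it was lost with both floxed groups as the control (-0.999, adjusted p = 0.0571).

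Sample titles carry numbers either under 100 or of 200 and over, with no meaning stated for them, and the split was uneven (Fadd fl/fl 2 and 3 mice, FADD IEC-KO 4 and 1). With the title series as a covariate, Lyz2 fell by 2.09 in FADD IEC-KO (adjusted p = 1.15e-04), but C1qb (-0.63, adjusted p = 0.0757), Csf1r (-0.57, adjusted p = 0.0613) and Cd163 (-0.47, adjusted p = 0.0860) did not pass. Within the series under 100 alone no member passed, with fewer mice, and the Lyz2 difference was -1.92 in FADD IEC-KO (adjusted p = 0.152) and -1.53 in CASP8 IEC-KO (adjusted p = 0.0641). In the series of 200 and over, 2 comparisons could be made, each of 2 double mutants against 3 Fadd fl/fl mice. There Lyz2, Itgam and C1qb fell in FADD IEC-KO Zbp1 -/-, with differences of -2.88, -1.74 and -1.22, while in FADD IEC-KO RIPK3 IEC-KO C1qb fell by 0.86 and Csf1r by 0.72 with Lyz2 at -0.99 (adjusted p = 0.156).

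MLKL loss on top of caspase-8 loss was examined as CASP8 IEC-KO Mlkl -/- against CASP8 IEC-KO, and Lyz2 rose 2.28-fold, the 1 call among the 9 genes (2.78% of all genes passed, 1.59% as higher). Lyz2 was 10.33, 10.07, 9.63, 10.39 and 10.13 in CASP8 IEC-KO Mlkl -/-. These mice lay above 4 of the 5 CASP8 IEC-KO mice and below replicate 1 at 10.50. Lyz2 rose by 1.19 ± 0.31 (95% CI 0.55 to 1.82; adjusted p = 0.0250), but the call was lost without any one of CASP8 IEC-KO replicates 2, 3 or 4 or CASP8 IEC-KO Mlkl -/- replicates 1 or 4 (0.96 to 1.58 over the 10 mice left out in turn). Itgam was 6.96, 7.78, 7.25, 7.40 and 7.64 against 6.84, 6.35, 6.72, 6.25 and 6.76. Every double mutant lay above every CASP8 IEC-KO mouse, as 2.22% of all genes did in that direction, and the difference of 0.82 ± 0.25 missed the threshold (adjusted p = 0.0627). C1qb differed by 0.47 ± 0.21 (adjusted p = 0.311), Csf1r by 0.37 ± 0.18 (adjusted p = 0.361) and Mrc1 by -0.14 ± 0.21.

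Beside Lyz2, 14 of 17 Paneth cell genes rose in this comparison (median 2.07) and Lyz1 rose by 1.51 ± 0.32 (adjusted p = 0.00310). C2 rose by 1.46 ± 0.23 (adjusted p = 5.20e-05) and Ctss by 0.38 ± 0.11 (adjusted p = 0.0471), the 1 of 32 and 1 of 28 genes of their lists to pass. Against Casp8 fl/fl, none of the 9 genes passed in CASP8 IEC-KO Mlkl -/- (1.09% of all genes passed, 0 members at an unadjusted p under 0.05), and the Lyz2 difference was -0.51 ± 0.31 (95% CI -1.15 to 0.12; adjusted p = 0.552). Plac8, of the monocyte and inflammatory macrophage list, rose against Casp8 fl/fl. Whether MLKL loss acts differently after FADD loss and after caspase-8 loss was tested as an interaction. None of the 9 genes passed (0.0564% of all genes did, 2 members at an unadjusted p under 0.05), with Lyz2 at -0.92 ± 0.44 (95% CI -1.82 to -0.03; adjusted p = 0.770) and Itgam at -0.81 ± 0.35 (adjusted p = 0.691).

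The triple mutant was set against both floxed groups together, and none of the 9 genes passed (3.69% of all genes passed, 1 member at an unadjusted p under 0.05). Lyz2 was 10.35, 10.33, 10.33, 10.96 and 10.18, within the range of the controls, and differed by -0.40 ± 0.27 (95% CI -0.95 to 0.15; adjusted p = 0.467). C1qb, from 7.54 to 7.78, and C1qa, from 7.79 to 8.09, also lay within the control range, with differences of -0.22 ± 0.18 and -0.13 ± 0.17. Plac8, of the monocyte and inflammatory macrophage list, rose. Against CASP8 IEC-KO Mlkl -/- none passed (3.1% of all genes did, 0 members at an unadjusted p under 0.05), and the differences ran from -0.19 for Adgre1 to 0.32 for Lyz2.

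Against FADD IEC-KO Mlkl -/- the triple mutant had 1 call among the 9 genes (7.86% of all genes passed, 5.51% as higher). Lyz2 rose by 1.295 ± 0.31 (adjusted p = 0.00734) and every triple mutant lay above every FADD IEC-KO Mlkl -/- mouse. Itgam was 7.64, 7.56, 7.20, 7.41 and 7.57 against 6.92, 6.89, 6.82, 6.98 and 6.38, also without overlap, with a difference of 0.68 ± 0.25 (adjusted p = 0.0858), and 6.87% of all genes were separated in that direction. The C1q chains and Csf1r had equal means within 0.04, with SEs of 0.18 to 0.21, and the signs of those 4 differences turned under quantile normalization. All 5 triple mutants had title numbers of 200 and over and all 5 FADD IEC-KO Mlkl -/- mice had numbers under 100, so series and genotype cannot be told apart here. With the series as a covariate, estimated from the other groups, Lyz2 differed by 1.10 (adjusted p = 0.0831). In the same comparison 12 of 17 Paneth cell genes and 8 of 8 smooth muscle genes rose. Of the complement genes C2 (by 1.26), Cd59a (by 0.93) and Cfb (by 0.39) rose. Ace, of the monocyte and inflammatory macrophage list, and Lgmn, of the other macrophage genes, also rose.

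Across the 45 mice, which come from 9 groups and were all read as whole tissue, the C1q chains followed each other closely, with r = 0.908 for C1qa and C1qb, 0.870 for C1qa and C1qc and 0.879 for C1qb and C1qc. After group means were removed r was 0.900, 0.864 and 0.865, so the likeness was among mice of 1 genotype. Over the 28 pairs of the 8 genes without Lyz2, r ran from 0.175 to 0.908 with a median of 0.619 (0.559 with group means removed). Lyz2 had a median r of 0.614 with the other 8 (0.478 with group means removed), from 0.303 with Mrc1 to 0.741 with Itgam.

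The gene most like the mean of C1qa, C1qb and C1qc was Spi1 (r = 0.957, rho = 0.896, n = 45; r = 0.955 with group means removed and 0.933 without the 2 mice farthest in Spi1). Next were Fcgr3, an activating Fc receptor gene (0.903), Fcer1g, the Fc receptor gamma chain (0.897), Ly86 (0.896), Laptm5 (0.873) and Cybb, the catalytic subunit of the phagocyte oxidase (0.871). Spi1 itself was 8.86, 9.53, 9.59, 9.97 and 9.28 in Fadd fl/fl and 9.06, 8.09, 8.85, 6.92 and 9.37 in FADD IEC-KO, with replicate 4 of the mutants the lowest of all mice, as for the C1q chains. Not all macrophage genes ran with C1q. The 28 other macrophage genes, which include Fcgr3 and Fcer1g but also dim genes such as Vsig4 (mean 4.50), had a median r of 0.334. The medians were 0.593 for the B and plasma cell list and 0.620 for the endothelial list, with -0.026 over all genes. The mean of the B and plasma cell list had r = 0.797 with the C1q mean (0.814 with group means removed), and that of the T cell list 0.657 (0.764). No such r was computed for the mean of the macrophage list, so the lists are not ranked by their likeness to C1q. The levels of lymphoid and vascular genes thus varied with C1q, and their part in the C1q differences was not tested.

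The gene most like Lyz2 was Lyz1 (r = 0.959, rho = 0.966, n = 45; r = 0.892 with group means removed and 0.961 without the 2 mice farthest in Lyz1). It was followed by Itln1 (0.952), the intelectin of Paneth and goblet cells, Ang4 (0.951), an antimicrobial ribonuclease of Paneth cells, Clps (0.933), Mptx1 (0.91) and Defa28 (0.906), a Paneth cell defensin. The median r of Lyz2 with the 17 Paneth cell genes was 0.848 (0.576 with group means removed), whereas that of the C1q mean with the same genes was 0.474 (0.218). For several other lists the medians of Lyz2 and of the C1q mean were closer. They were 0.325 and 0.334 with the 28 other macrophage genes and 0.561 and 0.620 with the endothelial genes. With the fibroblast genes they were 0.554 and 0.540, and with the T cell genes 0.485 and 0.557. They lay farther apart with smooth muscle (0.14 and -0.177), enterocyte and ileum (0.005 and -0.248) and mast cell genes (0.249 and 0.04). With the B and plasma cell genes they were 0.418 and 0.593. Lyz2 and the C1q mean had r = 0.644 (0.578). The part of Paneth cell RNA in the Lyz2 values was not tested, since no probe sequence was at hand to separate the lysozymes.

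**Figure D3:**
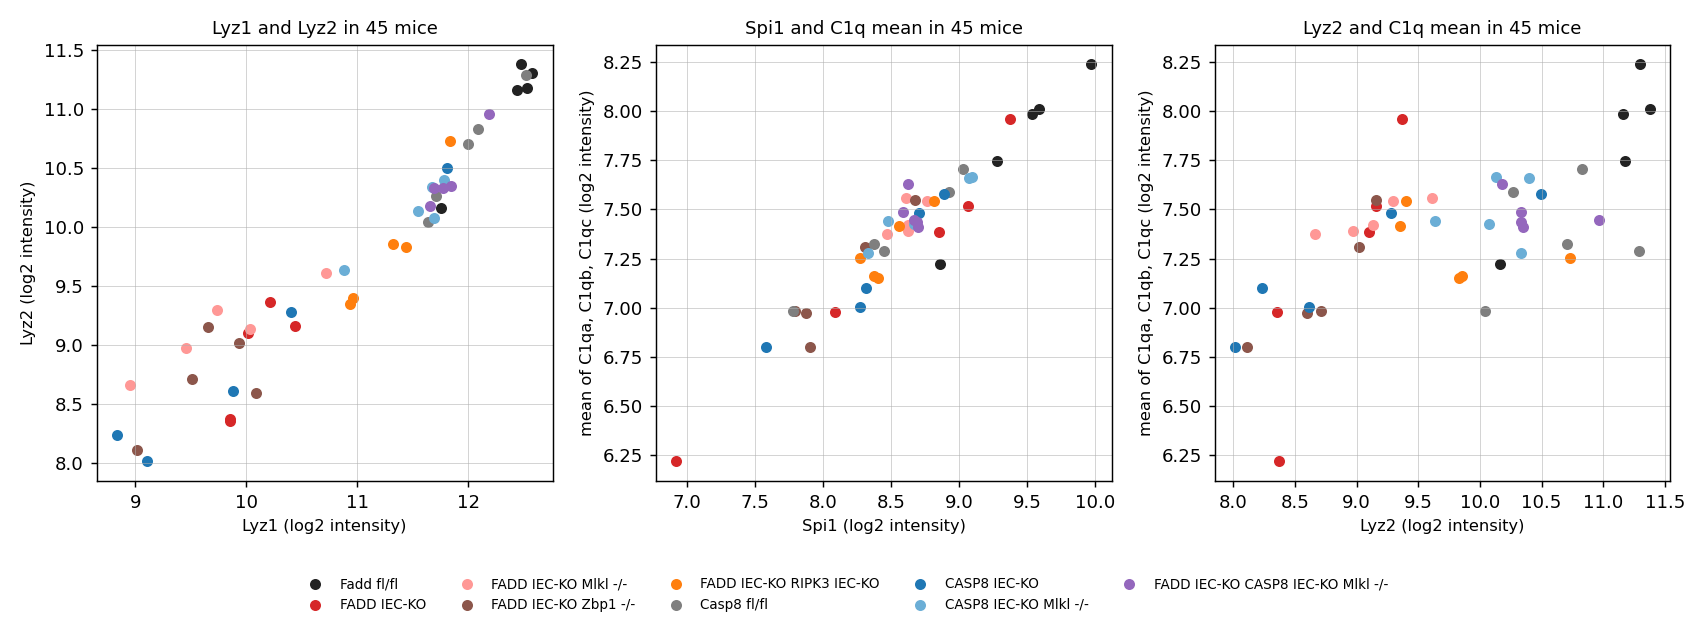
Log2 intensities in each of 45 mice, coloured by group: Lyz2 against Lyz1 (left), the mean of C1qa, C1qb and C1qc against Spi1 (middle) and that mean against Lyz2 (right). Pearson r was 0.959, 0.957 and 0.644, and the low point of the middle and right panels is FADD IEC-KO replicate 4.

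The group means of Lyz2 and of the other 8 genes ran in much the same order, with Fadd fl/fl highest and FADD IEC-KO Zbp1 -/- lowest in both. The mean of the 8 genes without Lyz2 was 7.42 ± 0.31 in Fadd fl/fl (SD, n = 5) and 7.11 ± 0.24 in Casp8 fl/fl. CASP8 IEC-KO Mlkl -/- mice stood at 7.16 ± 0.18 and triple mutants at 7.13 ± 0.06. It stood at 6.86 ± 0.47 for FADD IEC-KO mice and at 6.86 ± 0.25 for CASP8 IEC-KO mice. Among the double mutants of FADD it stood at 7.07 ± 0.12 with Mlkl -/-, at 6.92 ± 0.14 with RIPK3 IEC-KO and at 6.76 ± 0.28 with Zbp1 -/-. The combined epithelial loss of FADD and RIPK3 stood at 9.83 ± 0.56 for Lyz2, nearer to CASP8 IEC-KO Mlkl -/- (10.11 ± 0.30) than to FADD IEC-KO (8.87 ± 0.47), whereas its 8-gene mean lay next to that of FADD IEC-KO, and this difference in place was not tested.

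**Figure D4:**
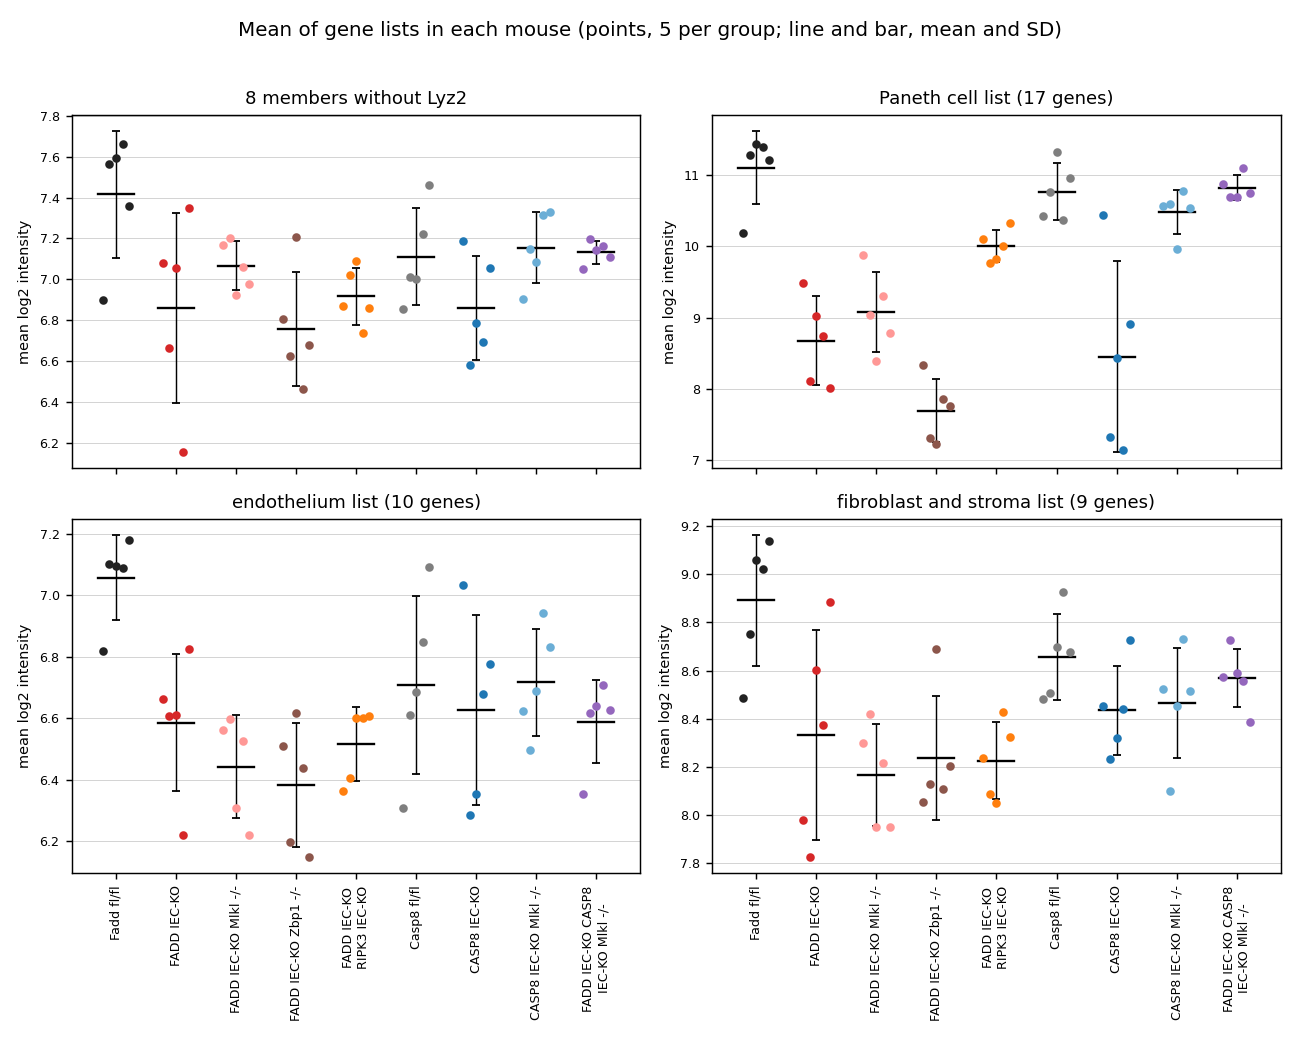
Mean log2 intensity of 4 gene lists (vertical axes, which differ between panels and do not start at 0) in each mouse, with 1 point per mouse and a line and bar for the mean and SD of each group of 5. The Paneth cell list ran from 8.01 to 9.49 in FADD IEC-KO and from 7.14 to 10.45 in CASP8 IEC-KO, and the endothelial list was highest in Fadd fl/fl (7.06 ± 0.14).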

How the data were processed

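The measurements are gene expression values of whole ileum from 45 mice on Affymetrix arrays, prepared from 100 ng of RNA with the WT PLUS kit per the labels' protocols. The values deposited by the authors are normalised log2 intensities for 22142 probes, and the submitters' processing notes name the programs Expression Console and Transcriptome Analysis Console. The sources used here give no summarization method, program version or genome build. The medians of the arrays ran from 6.36 to 6.44 and no 2 arrays were identical.

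Probes were named from the platform annotation (19527 with 1 symbol, 0 with several, 2615 with none and not used), and 33 genes with several probes were read from their brightest one on average, which left 19494 genes. Groups came from titles and genotypes, and mice carried no pairing. A model with 1 mean for each group was fitted to all 45 arrays with limma 3.58.1 (R 4.3.3), with empirical Bayes moderation and Benjamini-Hochberg adjustment over all genes, called at an adjusted p below 0.05. There were 14 comparisons and 2 interactions, and the procedure was tested on simulated data. P-values measure the spread between these mice. Counts at an unadjusted p under 0.05 are given without the share of all genes at that threshold, which was not counted. Every member was to be named in each comparison. Of each other list, up to 3 called genes with the largest change were to be named, or, where none was called, its brightest gene, and the 6 genes most correlated with the C1q mean and with Lyz2. A few further called genes were named after their values were seen. Not every list with a called gene is reported in every comparison. The genes of the set and the lists were chosen with earlier results of these data known.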

Additional observations from a re-analysis of the deposited data

Results flagged for a closer look

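In each group of 5 mice the highest and lowest values of each gene were examined for a mouse that stood apart from the others (gap to the nearest mouse over the whole range above the 95% critical value of Dixon). Of 81 groups of values, 4 had such a mouse, and chance alone flags about 1 in 20. Lyz2 in Fadd fl/fl replicate 1 was 10.16, below the other 4 controls at 11.16 to 11.38. The same mouse was apart in C1qc, at 6.30 against 7.20 to 7.53. Lyz2 in replicate 4 of FADD IEC-KO CASP8 IEC-KO Mlkl -/- was 10.96, above the other 4 at 10.18 to 10.35. Itgam in FADD IEC-KO Mlkl -/- replicate 5 was 6.38, below the other 4 at 6.82 to 6.98.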

How the results depend on the processing

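The counts of called genes were recomputed under 13 alternatives and with each mouse left out in turn. None of the called differences reversed. FADD IEC-KO against Fadd fl/fl (4 calls) gave 1 with the title series as a covariate, 2 with the index of Y-linked genes (added after the data were seen), 7 with array weights, 1 with the 2 groups fitted alone, 0 in the title series under 100 alone, and 1 to 6 with a mouse left out. CASP8 IEC-KO against Casp8 fl/fl (1 call) gave 2 with the series covariate, 5 with both floxed groups as the control, 0 fitted alone, 0 in the series under 100, and 1 to 2 with a mouse left out. CASP8 IEC-KO Mlkl -/- against CASP8 IEC-KO (1) gave 2 with array weights, 2 with an intensity trend, 2 with dim genes left out, 0 in the series under 100, and 0 to 2 with a mouse left out. FADD IEC-KO Mlkl -/- against Fadd fl/fl (1) gave 3 with array weights, 2 with the trend, 2 without dim genes, 0 in the series under 100, and 1 to 2 with a mouse left out. FADD IEC-KO Zbp1 -/- against Fadd fl/fl (6) gave 3 fitted alone, 0 in the series under 100, and 3 to 8 with a mouse left out. FADD IEC-KO RIPK3 IEC-KO against Fadd fl/fl (1) gave 0 with the series covariate, 4 with array weights, 0 with both floxed groups, 0 fitted alone, 0 in the series under 100, 5 in the series of 200 and over, and 0 to 5 with a mouse left out. The triple mutant against FADD IEC-KO Mlkl -/- (1) gave 0 with the series covariate, 2 with array weights, 2 fitted alone, and 1 with a mouse left out. The other comparisons gave 0 with any mouse left out. The share of all genes called was not counted for the alternatives listed above. The series and groups fitted alone hold fewer mice. The cause of a changed count was not tested for any alternative. No paired analysis was possible because the titles give the groups no shared replicate numbers. A planned index that includes Xist was not run, since no probe named Xist was used here. Leaving out dim genes kept 7 of the 9 genes.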

Other observations

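Genes of the other lists gave patterns outside the comparisons of the macrophage genes. S100a8, a calcium-binding alarmin of neutrophils and inflammatory monocytes, had a mean log2 intensity of 4.40 in FADD IEC-KO. Against that group it fell by 1.25 ± 0.28 (SE) in FADD IEC-KO Mlkl -/- (limma, adjusted p = 0.00675), by 1.33 ± 0.28 in FADD IEC-KO Zbp1 -/- (adjusted p = 0.00541) and by 1.01 ± 0.28 in FADD IEC-KO RIPK3 IEC-KO (adjusted p = 0.0482). These comparisons share the FADD IEC-KO mice, the groups overlapped in each of them, and the probe was dim in all groups.

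The complement protease gene C2 had mean log2 values of 6.92 in CASP8 IEC-KO and 7.71 in its floxed control. It stood at 8.38 when Mlkl was also missing and at 8.44 with the triple loss. In the triple mutant it rose by 0.86 ± 0.20 over both floxed groups together (limma, adjusted p = 0.0103), a comparison in which none of the C1q genes was called.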
